A study of Mus musculus with 20 samples.

Results

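The first 4 h after estradiol (E2) withdrawal were examined by setting the ATAC-seq peak list of 4 h without E2 against the list of cells kept in E2 (0 h). The members were the peaks of either list that no peak of the other overlapped by at least 1 bp. Of the 54717 peaks at 4 h, 8890 had no 0 h peak and are called gained, and of the 55261 peaks at 0 h, 9499 had no 4 h peak and are called lost. These 18389 peaks were drawn from 504887 peaks in the 10 lists of the series. The 8 h list then split each set. Held gained peaks were still listed at 8 h and reverted gained peaks were not. Held lost peaks were still unlisted at 8 h and reverted lost peaks were listed again.

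All groups were cultured ER-Hoxa9-Lys-GFP cells, strain C57BL/6, kept in RPMI with serum and SCF conditioned media. The groups set against each other were cells 4 h after E2 had been washed out and untreated cells with E2. Cells at 8, 12, 24, 36, 48, 72, 96 and 120 h without E2 served to follow the differences, with 2 replicates at each time and 20 samples in all. Because 1 preparation of nuclei fed 2 transposition reactions, the replicates may be technical. Each time had 1 peak list that belonged to both replicates, so replicate error is unknown and no test was possible. Read depth is unknown because the lists carry no counts. Shares carry 95% Wilson intervals for counting error alone. Gained and lost therefore describe the lists and are not calls of a test.

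In ATAC-seq the transposase Tn5 cuts and tags accessible DNA, and a peak marks a stretch where cuts pile up, usually a promoter or an enhancer. Hoxa9 is a homeobox transcription factor that holds myeloid progenitors in an immature, dividing state and binds largely at distal enhancers together with Meis1 and lineage factors such as PU.1 and C/EBPα. In cells with an estrogen receptor fusion of Hoxa9, E2 keeps the fusion protein active, and its removal lets the cells mature along the neutrophil and monocyte path. The model rests on an engineered fusion protein, and E2 can also act on any estrogen receptor of the host cell. The lysozyme gene Lyz2, whose locus drives the green fluorescent reporter in such lines, had 3 peaks at 0 h, 3 at 4 h and 3 at 8 h, and none of them was gained or lost.

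The myeloid identity of the cells was read from promoter peaks at marker genes, a promoter peak being one within 1000 bp of the transcription start site (TSS). Of 14 granulocyte and monocyte progenitor markers, 9 had a promoter peak at 4 h and 10 at 0 h, among them Mpo, Ctsg, Kit, Cd34, Spi1 and Gfi1. Elane, Prtn3, Cebpa and Cebpe had none at either time, and Csf3r had none at 4 h and one at 0 h. Of 6 markers each, T cell genes had promoter peaks at 0, epithelial or mesenchymal genes at 1 (Col1a1) and B cell genes at 3 (Cd79a, Cd79b, Ebf1). These counts for other cell types were the same at 4 h and at 0 h.

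Promoters with a held difference are shown here for 6 genes whose peaks recur in the results. The letters are the 250 bases before the annotated start in the RefSeq promoter table, build GRCm38.p6, 5′ to 3′ on the gene's strand. Capitals mark a GC box (GGGCGG) or a CCAAT box (CCAAT) on either strand. The first 3 promoters had a held gained peak: Ccne1, encoding cyclin E1 of the G1 to S transition (chr7:38107491-38107740, minus strand), Per1, a circadian repressor that is also an early response gene (chr11:69099902-69100151, plus strand), and Tnfaip3, encoding the NF-κB inhibitor A20 (chr10:19015411-19015660, minus strand). The other 3 had a held lost peak: Foxp1, a forkhead transcription factor (chr6:99520994-99521243, minus strand), Klf4, a zinc finger factor of monocyte maturation (chr4:55532476-55532725, minus strand), and Rpl13a, a ribosomal protein gene (chr7:45128746-45128995, minus strand).
Ccne1: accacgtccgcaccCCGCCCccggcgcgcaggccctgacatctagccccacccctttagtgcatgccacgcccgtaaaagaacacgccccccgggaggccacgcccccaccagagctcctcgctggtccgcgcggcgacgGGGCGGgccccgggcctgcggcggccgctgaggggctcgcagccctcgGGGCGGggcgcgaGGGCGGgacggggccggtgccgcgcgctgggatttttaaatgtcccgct
Per1: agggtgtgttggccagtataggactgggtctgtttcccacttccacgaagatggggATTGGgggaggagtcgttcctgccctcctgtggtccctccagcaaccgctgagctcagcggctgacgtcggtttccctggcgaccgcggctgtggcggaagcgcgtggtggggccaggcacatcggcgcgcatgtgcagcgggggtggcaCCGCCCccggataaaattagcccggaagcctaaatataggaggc
Tnfaip3: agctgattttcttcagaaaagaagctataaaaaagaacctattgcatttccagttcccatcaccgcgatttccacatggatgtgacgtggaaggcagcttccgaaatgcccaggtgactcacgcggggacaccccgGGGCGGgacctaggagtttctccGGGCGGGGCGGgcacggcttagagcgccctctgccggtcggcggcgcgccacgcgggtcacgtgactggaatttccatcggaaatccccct
Foxp1: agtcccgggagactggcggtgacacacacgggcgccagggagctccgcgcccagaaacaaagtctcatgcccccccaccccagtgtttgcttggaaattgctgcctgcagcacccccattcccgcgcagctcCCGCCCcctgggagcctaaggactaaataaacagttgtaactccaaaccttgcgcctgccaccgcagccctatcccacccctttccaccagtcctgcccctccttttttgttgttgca
Klf4: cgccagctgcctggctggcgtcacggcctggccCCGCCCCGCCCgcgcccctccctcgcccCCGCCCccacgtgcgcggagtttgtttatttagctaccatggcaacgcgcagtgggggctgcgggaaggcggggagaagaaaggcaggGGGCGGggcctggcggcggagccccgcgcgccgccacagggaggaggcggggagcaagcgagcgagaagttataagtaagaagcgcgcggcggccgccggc
Rpl13a: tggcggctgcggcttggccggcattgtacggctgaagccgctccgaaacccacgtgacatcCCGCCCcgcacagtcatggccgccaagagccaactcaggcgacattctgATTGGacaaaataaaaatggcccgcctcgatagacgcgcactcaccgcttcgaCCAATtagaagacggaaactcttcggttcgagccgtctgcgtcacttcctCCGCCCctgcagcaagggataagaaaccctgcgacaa

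Gained peaks made up 16.2% of the 4 h list and lost peaks made up 17.2% of the 0 h list. About as many of these differences reverted by 8 h as were held. Of the 8890 gained peaks, 4716 were held, which is 53.0% of them (52.01 to 54.1%) and 8.62% of the 4 h list. Of the 9499 lost peaks, 4555 were held, which is 48.0% of them (46.9 to 49.0%) and 8.24% of the 0 h list. The other 4174 gained peaks were absent at 8 h, and the other 4944 lost peaks were back at 8 h. The held gained and held lost sets were thus of nearly equal size, and the total number of peaks differed little between the lists, at 54717 for 4 h and 55261 for 0 h.

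The same sorting at the following steps gave a different balance. Of the peaks gained at 8 h over 4 h, 61.7% (60.8 to 62.6%) were held at 12 h, and of those gained at 12 h over 8 h, 65.5% (64.6 to 66.4%) were held at 24 h. The first step thus had the lowest held share of gained peaks of the steps up to 36 h over 24 h. Later the share was lower at 48 h over 36 h (37.2%) and at 72 h over 48 h (38.9%). It was 55.7% at 96 h over 72 h. The lists were not equally spaced in time, so the steps and their checks differ in length. Lost peaks were held in 49.5% at the 8 h step and 49.0% at the 12 h step, close to the 48.0% of the first step. At the 72 h step 88.7% of lost peaks were held and at the 96 h step 92.3%. The held lost set of the first step was 4555 peaks, against 18740 at the 96 h step. The lists that decided held at these late steps were shorter, with 29806 peaks at 96 h and 23620 at 120 h. Of the peaks shared by both lists of the step, 40.9% were unlisted at the 96 h check and 25.3% at the 120 h check. At the first step this share was 11.9%. The part of list length in the held shares was not tested.

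**Figure D1:**
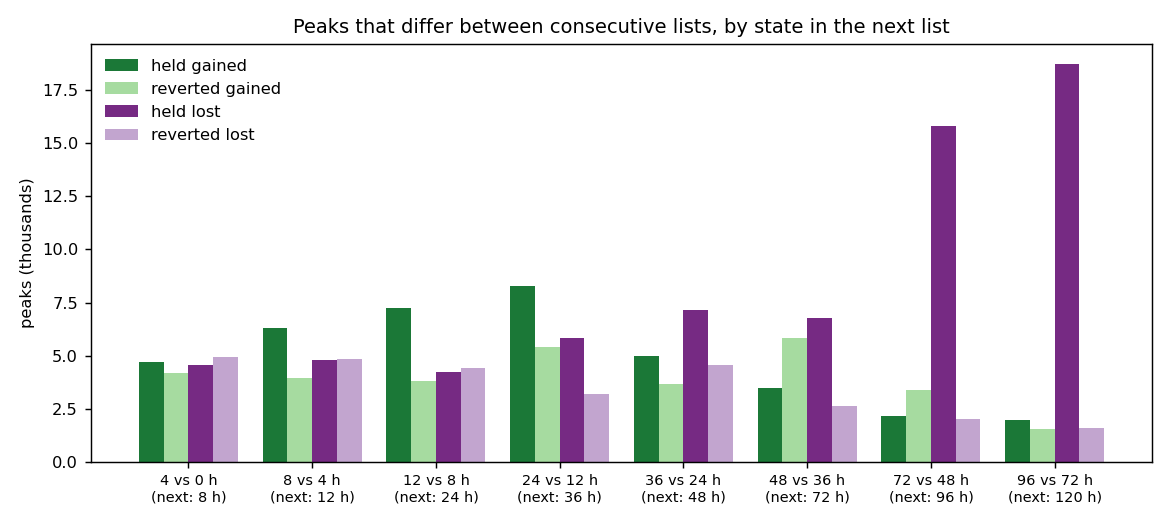
Bars give the numbers of held gained, reverted gained, held lost and reverted lost peaks of each list set against the list before it, with the next list deciding held or reverted. The 4 classes lie between 4174 and 4944 peaks in the first step, whereas held lost peaks reach 18740 in the step of 96 h against 72 h.

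Merging overlapping peaks of the 0, 4 and 8 h lists gave 68951 regions, of which 40042 (58.1%) were in all 3 lists. Regions listed at 4 h alone numbered 4174, and regions missing at 4 h alone numbered 4890. Together these 9064 regions were 49.7% of those that differed between 4 h and 0 h. The same quantity was 44.1% in the triple starting at 4 h, 41.8% in the triple starting at 8 h and 12.8% in the triple starting at 72 h. The first step had the largest share of the 8 such triples. Regions listed in only 1 of the 0, 4 and 8 h lists were 4555 at 0 h, 4174 at 4 h and 5297 at 8 h, so each of the 3 lists held a set of its own of similar size.

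The later lists, which took no part in the sorting, showed how far held and reverted peaks differed. Held gained peaks were overlapped in 70.8% (69.5 to 72.1%) by the 24 h list, 63.1% by the 48 h list, 49.1% by the 72 h list and 25.6% by the 120 h list. Reverted gained peaks were overlapped in 42.0% (40.6 to 43.6%) by the 24 h list, 35.3% by the 48 h list, 23.5% by the 72 h list and 11.6% by the 120 h list. Held gained sites were therefore listed more often in every later list than reverted gained sites. Held lost peaks were overlapped in 39.5% (38.1 to 41.0%) by the 24 h list, 32.3% by the 48 h list, 19.8% by the 72 h list and 10.6% by the 120 h list. Reverted lost peaks were overlapped in 71.6% (70.3 to 72.8%) by the 24 h list, 63.5% by the 48 h list, 47.1% by the 72 h list and 25.1% by the 120 h list. The 40372 peaks of the 4 h list that were also listed at 0 and 8 h were overlapped in 89.3% at 24 h and 37.9% at 120 h.

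Held gained sites and sites missing at 4 h alone had much the same later course. Merged regions missing at 0 h alone were found in 70.6% by the 12 h list, 71.0% by the 24 h list, 65.6% by the 36 h list and 25.3% by the 120 h list. Regions missing at 4 h alone were found in 70.7% by the 12 h list, 71.7% by the 24 h list, 65.6% by the 36 h list and 24.99% by the 120 h list. Regions missing at 8 h alone were listed less often, in 60.8% at 12 h and 62.0% at 24 h. Regions listed at 4 h alone (37.3% at 12 h) and at 0 h alone (36.0% at 12 h) also lay close together, and regions listed at 8 h alone were at 53.4%. At 12 h, the regions whose 8 h state was the odd one thus lay between the groups with 2 of 3 lists and those with 1 of 3.

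**Figure D2:**
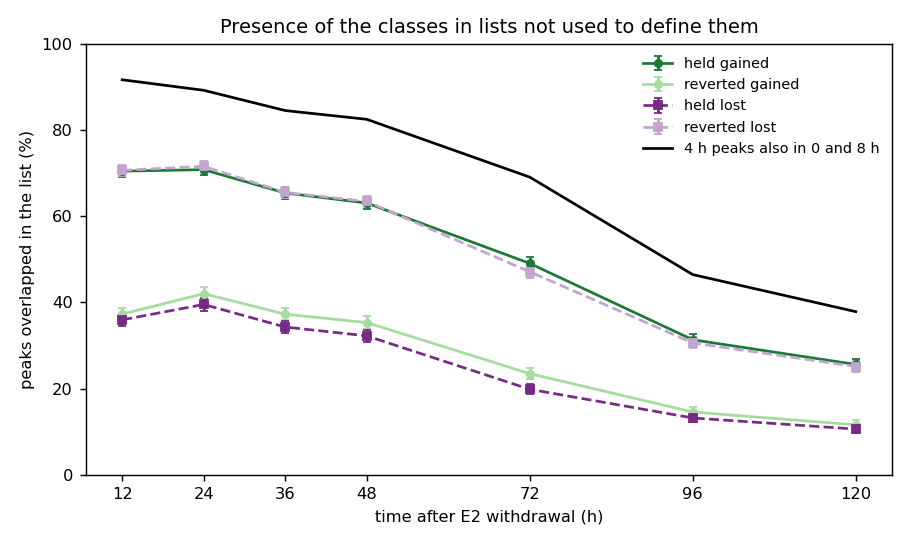
Lines give the percentage of each class overlapped by a peak of the lists at 12 to 120 h, with 95% Wilson intervals, and the black line gives 4 h peaks that were also in the 0 and 8 h lists. Held gained and reverted lost peaks run together from 70.5% and 70.7% at 12 h to 25.6% and 25.1% at 120 h, above reverted gained and held lost peaks.

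Part of each held set kept its state in every later list, and the reverted sets had parts of similar size. Of the held gained peaks, 601 (12.7%) were in all 7 later lists and 383 (8.12%) were in none. Reverted lost peaks were in all 7 in 12.5%, and 4 h peaks also listed at 0 and 8 h in 30.4%. The 601 had a median width of 545 bp, and 35.3% of them were promoter peaks. The 383 had a median width of 305 bp, and 8.09% of them were promoter peaks. Of the held lost peaks, 1727 (37.9%) were in none of the 7 later lists and 143 (3.14%) were in all of them. Reverted gained peaks were in none of the 7 in 33.2% and in all of them in 3.21%. The 1727 were narrow and far from genes, with a median width of 327 bp, 4.86% promoter peaks and a median distance of 27207 bp to the TSS. The 143 that came back in every later list had a median width of 594 bp, and 39.2% of them were promoter peaks.

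The narrowest peaks differed most often between the lists. Of peaks under 250 bp, 41.8% (40.4 to 43.3%) of those at 4 h were gained and 40.7% (39.1 to 42.4%) of those at 0 h were lost. From 750 to under 1000 bp the shares were 8.57% gained and 10.6% lost. They were higher again from 1000 bp upward, at 12.5% (11.5 to 13.5%) gained and 14.3% (13.3 to 15.4%) lost. The held share moved with width in opposite ways among gained and among lost peaks. Among gained peaks the held share was 38.4% under 250 bp and 69.1% from 1000 bp, and among lost peaks it was 63.4% under 250 bp and 30.2% from 1000 bp. Held means listed at 8 h for gained peaks and unlisted at 8 h for lost peaks. In both sets the widest peaks were therefore listed at 8 h more often than the narrowest. Median widths were 384 bp for held gained, 308 bp for reverted gained, 330 bp for held lost and 417.5 bp for reverted lost peaks. Peaks of the 4 h list that were also in the 0 and 8 h lists had a median of 506 bp.

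**Figure D3:**
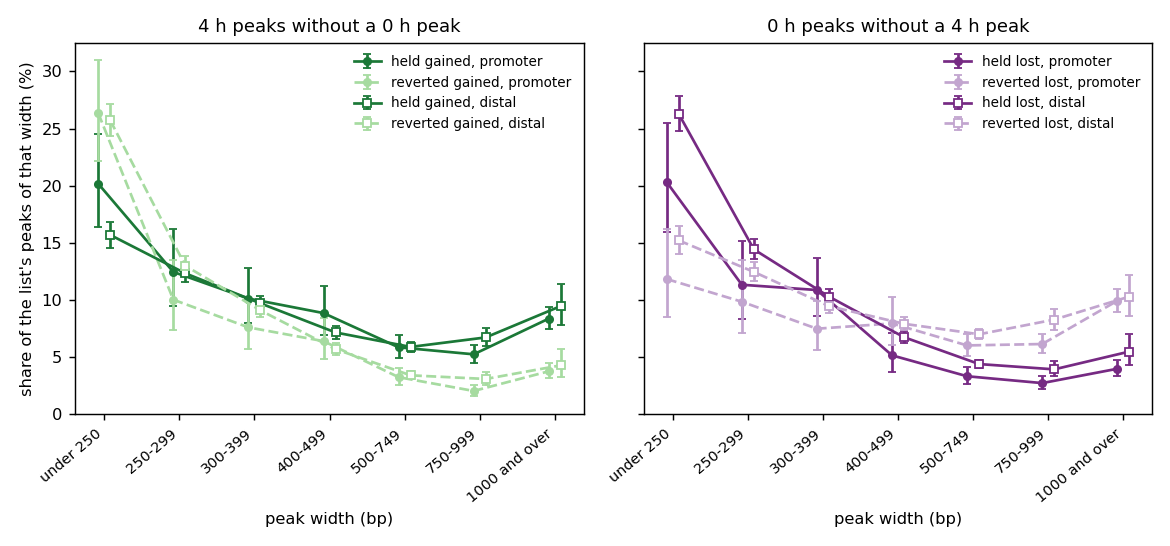
The left panel gives gained peaks as a share of the 4 h peaks of each width and the right panel lost peaks as a share of the 0 h peaks, split into held and reverted and into promoter (within 1000 bp of a TSS) and distal, with 95% Wilson intervals. In every series the share is highest under 250 bp, and from 1000 bp it is higher than at 750 to under 1000 bp; reverted lost peaks from 1000 bp reach 10.0% over both sites.

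Differences were switches in listing more than shifts of position. Held gained peaks lay a median of 6376 bp from the nearest 0 h peak, and held lost peaks lay a median of 6886 bp from the nearest 4 h peak. A peak of the other list within 100 bp was found for 2.25% of held gained and 1.30% of held lost peaks. The 45092 pairs of peaks that matched one to one had a median log2 width ratio of 0 at 4 h over 0 h, with quartiles of −0.11 and 0.10. Of these pairs 48.8% were wider at 4 h.

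Promoters took a larger part of held gained than of held lost peaks. Of the held gained peaks, 806 (17.1%; 16.04 to 18.2%) were promoter peaks, against 481 (10.6%) of the held lost peaks. Set against all promoter peaks of their list, held gained peaks made up 7.59% (7.10 to 8.11%) of the 10623 at 4 h and held lost peaks made up 4.53% (4.15 to 4.95%) of the 10607 at 0 h. Away from promoters the shares were alike, at 8.87% held gained of 44094 peaks and 9.12% held lost of 44654 peaks. Reverted peaks had the opposite balance, with promoter shares of 11.5% in reverted gained and 16.5% in reverted lost peaks. Of the 0, 4 and 8 h lists, held gained peaks were in those of 4 and 8 h and reverted lost peaks in those of 0 and 8 h. These sets had similar promoter shares, 17.1% and 16.5%. Held lost peaks were listed at 0 h alone and reverted gained peaks at 4 h alone. Their shares were also similar, 10.6% and 11.5%. The promoter share was 21.0% in 4 h peaks also listed at 0 and 8 h. The width of the sets moves with this balance, since promoter peaks are the wider ones. The parts of width and of the number of lists holding a peak in the difference were not tested.

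Held gained peaks lay closer to genes than held lost peaks. The median distance to the TSS was 15638 bp for held gained and 21225 bp for held lost peaks. Reverted lost peaks were at 17384 bp and reverted gained peaks at 17799.5 bp. Held gained peaks were listed at 4 and 8 h and held lost peaks at 0 h alone. The part of this unlike listing in the distances was not tested. Of the 4 h peaks within 100 bp of a TSS, 6.12% were held gained, and of those more than 100 kb away, 8.97% were. Of the 0 h peaks, 3.54% were held lost within 100 bp and 12.2% beyond 100 kb. By the deposited annotation, 41.5% of held gained peaks were intergenic, 40.1% intronic and 11.03% at the promoter and TSS. Held lost peaks were intergenic in 43.9%, intronic in 43.2% and at the promoter and TSS in 6.78%.

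Peaks in short interspersed repeats (SINE) switched more often than peaks outside repeats. Of the 3288 SINE peaks at 4 h, 864 (26.3%; 24.8 to 27.8%) were gained, against 15.2% of peaks with no repeat. Of the 3244 SINE peaks at 0 h, 804 (24.8%) were lost, against 16.3% with no repeat. Held peaks made up 11.5% of SINE peaks for gained and 13.9% for lost. Peaks in long terminal repeats were gained in 20.7% and lost in 20.1%. Peaks in CpG islands stood at the other end, with 146 of 1327 gained at 4 h and 12.5% of those at 0 h lost.

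Short strings were counted in the promoters of the held sets, with no test of a difference between them. The windows searched were the 250 bases before the start that a peak touched, 715 for held gained and 375 for held lost peaks. A GC box (GGGCGG, either strand) stood in 57.1% of held gained and 57.1% of held lost windows, against 58.5% of 8593 windows with a peak at 0, 4 and 8 h and 32.7% of all 32851 windows. The ETS string CCGGAAG stood in 14.5% of held gained, 13.9% of held lost and 6.91% of all windows. Its share in windows with a peak at 0, 4 and 8 h was 15.3%, near that of the held sets. The PU.1 string GAGGAAG stood in 12.0% of held gained, 10.7% of held lost and 10.6% of all windows, and in 11.6% of windows with a peak at 0, 4 and 8 h. A CCAAT box was less frequent in both held sets, at 28.5% (25.3 to 31.9%) of held gained and 28.5% (24.2 to 33.3%) of held lost windows, than in windows with a peak at 0, 4 and 8 h, at 37.1% (36.1 to 38.1%). A TATA box (TATAAA) stood in 4.76% of held gained, 6.93% of held lost and 12.4% of all windows. Windows with a peak at 0, 4 and 8 h had it in 5.82%. Median GC content was 61.2% in held gained and 60.8% in held lost windows, against 52.4% in all. A match is a run of letters and not a bound site, and strings were counted on both strands without removing overlaps between different strings.

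Of 18277 genes with a peak assigned at 4 or 0 h, 3886 had a held gained peak, 3668 had a held lost peak and 1039 had both. Of these genes, 30 had at least 4 held gained peaks and 39 had at least 4 held lost peaks. Assignment is to the nearest TSS as deposited, so a distal peak may belong to another gene.

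The largest excess of held gained over held lost peaks was at Amigo2 and Abr, with 6 and 0 each. Amigo2, a cell adhesion protein, had 9 peaks at 0 h, 14 at 4 h and 15 at 8 h. Its 6 held gained peaks spanned 168 kb from the promoter outward on chromosome 15, and 1 of them, 64844 bp upstream, was in all 7 later lists. Abr, a GTPase activator for Rac, had 11 peaks at 0 h, 18 at 4 h and 17 at 8 h. All 6 of its held gained peaks were present at 24 h, 5 of them in introns and 1 at a promoter. Phc2, a Polycomb subunit, had 6 peaks at 0 h, 11 at 4 h and 16 at 8 h. Its 5 held gained peaks included a 1284 bp peak at a promoter that was in 6 of the 7 later lists.

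Fam109a had 6 peaks at 0 h, 10 at 4 h and 11 at 8 h, and its 5 held gained peaks lay within 25.9 kb. Tmed10, a cargo receptor between endoplasmic reticulum and Golgi, had 4 peaks at 0 h, 9 at 4 h and 8 at 8 h, 4 of them held gained. Pfkp, the platelet type phosphofructokinase of glycolysis, had 5 held gained and 1 held lost peak. Syne2, a nuclear envelope linker, Grik4, a kainate receptor subunit, and the noncoding genes A530013C23Rik and C030006K11Rik had 4 held gained and no held lost peak each. The 10 genes thus had between 4 and 6 held gained peaks, and Pfkp was the one among them with a held lost peak as well.

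The most held lost peaks at any gene were 9, at Foxp1 and Mir5127. Foxp1 had 30 peaks at 0 h, 23 at 4 h and 25 at 8 h. Its 9 held lost peaks spanned 517 kb, with 8 in introns and 1 at the promoter printed above, and 5 of them were in no later list. The promoter peak, 820 bp wide at chr6:99520911-99521730, was listed again at 12 and 24 h. Foxp1 also had 4 held gained peaks, 3 of which were in all 7 later lists, including peaks 1888 and 2474 bp upstream of the same start. The nearer of these, chr6:99522557-99523205, covers position 99522746, the outer end of the annotated Foxp1 span on its minus strand. Foxp1 has 3 promoter windows in the RefSeq table, so this peak may itself be at a start. The peak at the start printed above and these peaks beyond it switched in opposite directions between the lists.

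Trps1, a GATA type zinc finger repressor, had 26 peaks at 0 h, 16 at 4 h and 22 at 8 h. It had no held gained and 6 held lost peaks. Switching in both directions was seen among the peaks assigned to the microRNA gene Mir5127 on chromosome 18. Of its 18 peaks at 4 h, 3 were held gained, and of its 25 peaks at 0 h, 9 were held lost. All of these held peaks were intergenic. Stk32c, a serine and threonine kinase, had 8 peaks at 0 h, 3 at 4 h and 3 at 8 h, then 7 by 12 h. All 5 of its held lost peaks were intronic, and 3 were present again at 24 h. Tns3, a focal adhesion tensin, Hgf, hepatocyte growth factor, and Pde10a, a cyclic nucleotide phosphodiesterase, had no held gained and 5 held lost peaks each. Their peaks at 0 h numbered 26, 26 and 20. Zfp507 and Mir6368 had 4 held lost peaks each. All 4 of the peaks at Zfp507 were absent from every later list.

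The held lost peaks assigned to Rprl1 lay inside the immunoglobulin kappa locus Igk, which holds 162 kappa variable segments in the RefSeq table. Rprl1 had 24 peaks at 0 h, 20 peaks at 4 h and 17 peaks at 8 h, and 12 were left at 24 h, 5 left at 72 h and 1 left at 120 h. Its 6 held lost peaks spanned 1280 kb and were in no later list. Over the whole Igk span, chr6:67555636-70726754, peaks numbered 46 at 0 h, 33 at 4 h and 33 at 8 h, and 27 were left at 24 h, 9 left at 72 h and 5 left at 120 h. Of the 46 peaks in the span at 0 h, 10 were held lost (21.7%; 12.3 to 35.6%), against 8.24% of all 0 h peaks. Of these 10, 9 were in no later list. The span was chosen after its values were seen, and the 10 include the 6 held lost peaks of Rprl1. The share is therefore not independent of that choice. The span had 2 held gained peaks. B cell markers had promoter peaks at 3 of 6 genes at 4 h and at 3 of 6 at 0 h, and their part in this result was not tested.

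**Figure D4:**
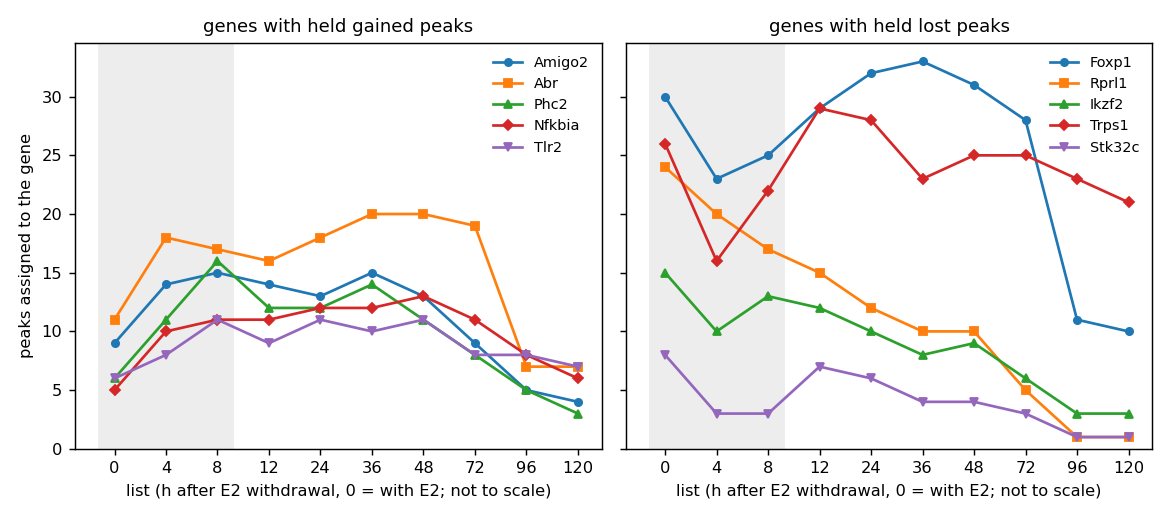
Points give the number of peaks assigned to a gene in each list, for 5 genes with held gained peaks (left) and 5 with held lost peaks (right), with the 0, 4 and 8 h lists shaded. Abr had 11, 18 and 17 peaks over the shaded lists and Rprl1 had 24, 20 and 17, and Trps1 had 26, 16 and 22.

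Genes of the Hoxa9 and Meis1 program had held lost peaks in a larger share than all genes. The list of 24 genes had 20 held gained peaks among its 185 peaks at 4 h, or 10.8% (7.11 to 16.1%), against 8.62% over all genes. It had 33 held lost peaks among its 213 peaks at 0 h, or 15.5% (11.2 to 21.0%), against 8.24% over all genes. More held gained than held lost peaks were found at 4 of the genes and the reverse at 11. Of the 33 held lost peaks, 24 were absent at 24 h and 16 were in no later list. Over all genes, 2754 of 4555 held lost peaks were absent at 24 h. Without Foxp1, which had 9 of the 33 held lost peaks, the share was 13.1% (8.97 to 18.8%). At distal peaks alone the list's share was 16.1%, against 9.12% of all distal peaks at 0 h. The intervals count each peak singly, although several peaks can fall at the same gene. The median width of the list's 0 h peaks was 491 bp, against 474 bp over all genes. The list was put together from general knowledge of Hoxa9 and Meis1 in mouse myeloid cells, with earlier results of these data known. Binding was not measured. No allowance was made for the 17 lists compared. The next highest held lost share of these lists was 14.3% (6.26 to 29.4%), at genes of non-blood tissues.

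Foxp1 and Ikzf2 carried the most held lost peaks of this list. Ikzf2, encoding the Ikaros family factor Helios, had 15 peaks at 0 h, 10 at 4 h and 13 at 8 h. Its 4 held lost peaks lay 277362 and 157062 bp downstream of the start, in an intron and 66975 bp upstream, and 3 of them were in no later list. Trib2, a pseudokinase that promotes degradation of C/EBPα, had 16 peaks at 0 h, 11 at 4 h and 14 at 8 h. It had 3 held lost peaks. Dusp6, a phosphatase of ERK, had 2 held gained and 3 held lost peaks. The Hoxa9 partner Meis1 had the opposite balance, with 3 held gained and 1 held lost peak and 13, 14 and 12 peaks at 0, 4 and 8 h. Erg, an ETS factor of stem cells, likewise had 3 held gained and 1 held lost peak. Cd34 and Flt3, surface markers of progenitors, had neither.

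**Figure D5:**
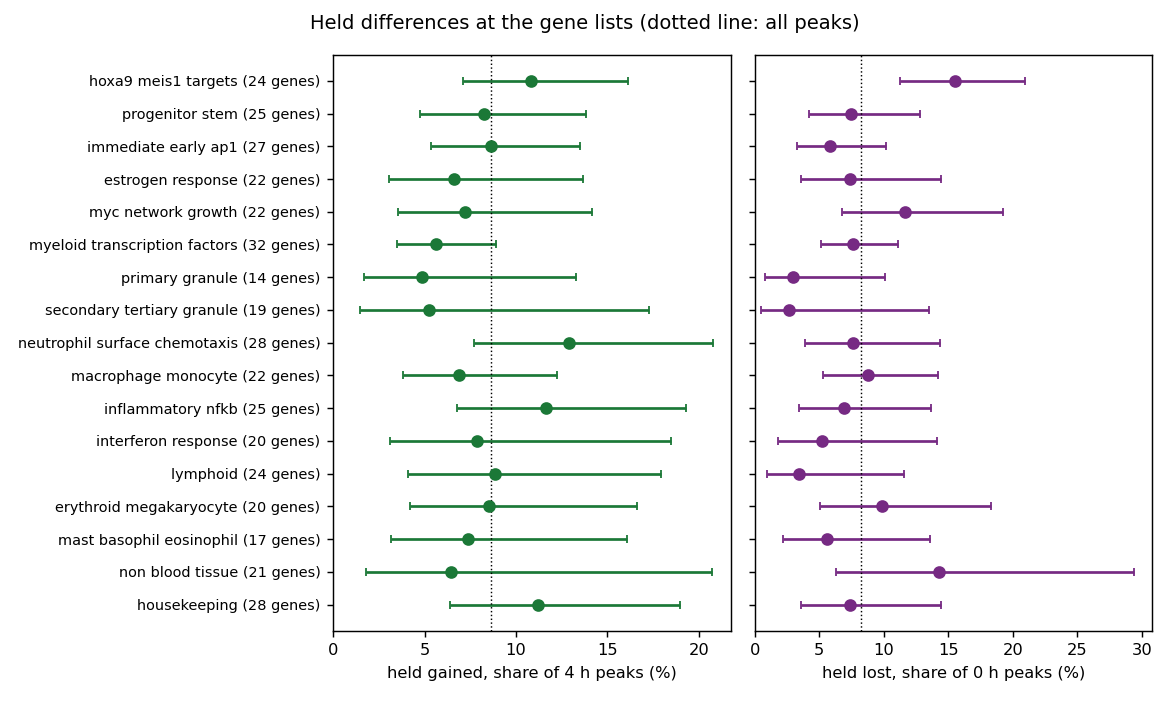
Points give, for 17 gene lists, held gained peaks as a share of the list's 4 h peaks (left) and held lost peaks as a share of its 0 h peaks (right), with 95% Wilson intervals, and the dotted lines mark 8.62% and 8.24% over all peaks. The interval of the Hoxa9 and Meis1 targets for held lost peaks, 11.2 to 21.0%, is the one of the 17 in that panel that lies wholly above the line, and no interval in the left panel does.

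Progenitor and stem cell genes had held peaks near the share over all peaks (8.62% held gained, 8.24% held lost), with 12 of 146 peaks held gained (8.22%) and 11 of 148 held lost (7.43%). Of their 11 held lost peaks, 1 was back at 24 h. Genes of the estrogen response, which E2 itself could act on, had 6 of 91 peaks held gained (6.59%) and 7 of 95 held lost (7.37%). Xbp1, a transcription factor of the unfolded protein response and an estrogen receptor target, had 1 held gained and 3 held lost peaks. Greb1, another estrogen receptor target, and Nrip1, a corepressor, had 1 held gained and no held lost peak each. Genes of the Myc network and growth had 7 of 97 peaks held gained (7.22%) and 12 of 103 held lost (11.7%; 6.79 to 19.3%). Ccne1 had 4 peaks at 0 h, 7 at 4 h and 6 at 8 h, and its held gained promoter peak of 916 bp was in all 7 later lists. Max, the partner of Myc, had 11 peaks at 0 h, 6 at 4 h and 11 at 8 h, and Mycl, a Myc paralog, had 5, 1 and 3. Both had 2 held lost peaks.

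Inflammatory and NF-κB genes had 12 of 103 peaks held gained (11.7%; 6.79 to 19.3%) and 7 of 101 held lost (6.93%; 3.40 to 13.6%). Both intervals included the share over all peaks, 8.62% held gained and 8.24% held lost, so the list was not separated from the background at this number of peaks. Of the 12 held gained peaks, 10 were present at 24 h. Nfkbia, encoding the NF-κB inhibitor IκBα, had 5 peaks at 0 h, 10 at 4 h and 11 at 8 h, the largest difference on this list. Its 3 held gained peaks lay 2600 and 6729 bp upstream and 32700 bp downstream of the start, and all 3 were present at 24 h. Held gained promoter peaks also stood at Tnfaip3 (1048 bp) and at Il1rn, encoding the interleukin 1 receptor antagonist (298 bp), the second of which was in every later list. Il6, a cytokine gene, had the reverse, with 1 held gained and 3 held lost peaks.

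Neutrophil surface and chemotaxis genes had 13 of 101 peaks held gained (12.9%; 7.68 to 20.8%) and 8 of 105 held lost (7.62%). Of the 13, 11 were present at 24 h. Tlr2, a receptor for bacterial lipoproteins, had 6 peaks at 0 h, 8 at 4 h and 11 at 8 h. Its 3 held gained peaks lay from 1941 bp downstream to 58048 bp upstream of the start. Fcgr4, an activating Fc receptor, had 3 peaks at 0 h, 4 at 4 h and 7 at 8 h. Both of its held gained peaks, 842 and 845 bp wide, were present at 24 h, and 1 was in all 7 later lists. Cxcr4, the marrow retention receptor of neutrophils, had 1 held gained and 3 held lost peaks. The interval of this list included the 8.62% of all genes, so its share was not separated from the background at this number of peaks.

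Granule genes had few peaks and few held ones. Primary granule genes had 3 of 62 peaks held gained (4.84%; 1.66 to 13.3%) and 2 of 68 held lost (2.94%; 0.810 to 10.1%), both of these at Srgn, which encodes the granule proteoglycan serglycin. Secondary and tertiary granule genes had 2 of 38 peaks held gained (5.26%; 1.46 to 17.3%) and 1 of 38 held lost (2.63%; 0.466 to 13.5%). All 4 intervals included the share over all peaks, 8.62% held gained and 8.24% held lost. With reverted peaks counted too, 4 of 62 primary granule peaks were gained (6.45%; 2.54 to 15.4%), against 16.2% over all peaks. Lost peaks were 9 of 68 (13.2%; 7.12 to 23.3%), against 17.2% over all peaks. The interval for gained peaks lay below the share over all peaks, and the interval for lost peaks included it. No allowance was made for the 17 lists compared. On the secondary and tertiary granule list, Cybb had a held gained peak. Cybb encodes the catalytic subunit of the phagocyte oxidase and had 1 peak at 4 h and none at 0 h. This peak, at chrX:9519908-9520304, lay 50782 bp upstream in intergenic DNA and was listed in every list from 4 to 72 h. The other held gained peak of that list was at the promoter of Adam8, a metalloprotease, 593 bp wide. Slpi, a protease inhibitor, had the held lost one.

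Transcription factors of the myeloid lineage had 16 of 285 peaks held gained (5.61%; 3.48 to 8.92%) and 23 of 303 held lost (7.59%; 5.11 to 11.1%). Both intervals included the share over all peaks, 8.62% held gained and 8.24% held lost. Per1, which stands on this list, had a held gained promoter peak 249 bp wide that was in every later list. Irf8, which directs monocyte fate, had 18 peaks at 0 h, 13 at 4 h and 15 at 8 h. It had 1 held gained and 4 held lost peaks. Klf4 had 20 peaks at 0 h, 18 at 4 h and 15 at 8 h and 3 held lost peaks. Among these was the 691 bp promoter peak, which was absent at 4, 8 and 12 h and listed in each list from 24 to 120 h. Maf, a macrophage factor, had 29 peaks at 0 h, 24 at 4 h and 25 at 8 h and 3 held lost peaks. Macrophage and monocyte genes as a list, which shares Irf8, Klf4 and Maf with this one, had 10 of 145 peaks held gained (6.90%) and 14 of 159 held lost (8.81%).

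Immediate early and AP-1 genes had 16 of 186 peaks held gained (8.60%, against 8.62% over all peaks) and 11 of 188 held lost (5.85%; 3.30 to 10.2%, against 8.24% over all peaks). Jun had 23 peaks at 0 h, 25 at 4 h and 24 at 8 h, and Fosl2, a Fos family factor, had 7, 10 and 8, with 2 held gained peaks each. Interferon response genes had 4 of 51 peaks held gained (7.84%) and 3 of 58 held lost (5.17%). With reverted peaks counted too, 8 of the 51 were gained (15.7%), against 16.2% over all peaks. Lost peaks were 16 of the 58 (27.6%; 17.8 to 40.2%), against 17.2% over all peaks, and 3 of these 16 were held. No allowance was made for the 17 lists compared.

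Lists chosen as a contrast to the myeloid ones gave shares of the same order as the 8.62% held gained and 8.24% held lost over all peaks. Housekeeping genes had 11 of 98 peaks held gained (11.2%; 6.38 to 19.0%) and 7 of 95 held lost (7.37%). Genes of non-blood tissues had 2 of 31 peaks held gained (6.45%) and 5 of 35 held lost (14.3%; 6.26 to 29.4%). Erythroid and megakaryocyte genes had 7 of 82 held gained and 8 of 81 held lost, lymphoid genes 6 of 68 and 2 of 59, and mast cell, basophil and eosinophil genes 5 of 68 and 4 of 71. Rpl13a had 2 peaks at 0 h and none at 4 or 8 h, both at its promoter. Its 708 bp peak was listed again in all 7 later lists. Ywhaz, a 14-3-3 protein gene, had 3 held gained and 1 held lost peak, and Ppia, encoding cyclophilin A, had 2 held gained peaks.

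Some of the widest promoter peaks were also unlisted for a time. Among held gained promoter peaks the widest was at Cul1, a ubiquitin ligase scaffold. Its width was 2092 bp at 4 h, 2096 bp by 8 h and 2115 bp by 12 h. It was unlisted at 0, 36 and 48 h, and was 1409 bp at 120 h. The others were at Foxn2 (1980 bp), Stk24 (1955 bp), Jmy (1915 bp) and Hivep1 (1869 bp). Among held lost promoter peaks the widest was at Mier3, 2144 bp at 0 h, unlisted at 4 and 8 h and 2178 bp at 12 h. The next was at Ddx3x, an RNA helicase, with 1926 bp at 0 h, followed by Gm13375 (1877 bp), Lasp1 (1857 bp) and Zfc3h1 (1831 bp). The last 3 were listed in all 7 later lists. Ldha, encoding lactate dehydrogenase A, had a 1679 bp promoter peak at 0 h that was next listed at 36 h.

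Held gained distal peaks were led by a site 14455 bp downstream of the start of Slfn14, chr11:83271412-83273130. It was 1719 bp wide at 4 h, 1645 bp by 8 h and 1280 bp by 120 h and was listed every time after 0 h. The distal sites at Lrp1 (1619 bp), Mreg (1548 bp) and Mir140 (1488 bp) were likewise in all 7 later lists, and the site at Gm1604b (1703 bp) was in 5. Among held lost distal peaks, the site at Lncppara was 1807 bp wide at 0 h and was listed again at 24, 36 and 48 h. The sites at Bicral (1510 bp), Kcnmb1 (1476 bp), Hspb9 (1468 bp) and Gm4285 (1410 bp) also came back in 2 to 5 later lists. None of the 5 widest held lost distal peaks stayed away in all later lists, whereas 4 of the 5 widest held gained ones stayed in all of them. Of distal peaks of 500 bp and over, the 24 h list overlapped 71.7% of held gained and 74.1% of reverted lost peaks. It overlapped 45.0% of held lost and 48.3% of reverted gained peaks. Held gained peaks were listed at 4 and 8 h and held lost peaks at 0 h alone. The part of this unlike listing and of width in the contrast was not tested.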

How the data were processed

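ATAC-seq was done on 20 samples, 2 for each time. The authors deposited 1 annotated peak list per time point. Pooling of replicates and any read shift for Tn5 are both not given in the sources used. BWA, MACS2 2.0, STAR 2.5 and the build mm9 are named, with no role or order, per the submitters' processing notes. The lists were annotated by HOMER against mm10, per the file headers, and positions are given as deposited, counted from 1. In the RefSeq table of GRCm38.p6, the same sequence as mm10, 8593 of 32851 promoter windows held a peak at 0, 4 and 8 h. The deposited peak score is 0 for every peak, so it ranked nothing. Start, end, distance to TSS and nearest gene were used as deposited values.

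Peaks were sorted by overlap of at least 1 bp. Promoter means at most 1000 bp from the TSS. Sorting was tested on simulated peaks. No test across samples was possible with 1 list per time, so counts and shares are given with 95% Wilson intervals beside the share over all peaks. The rule for named genes took the 10 genes with the largest excess of held gained and the 10 with the largest excess of held lost peaks (ties broken by the summed width of these peaks and then by name, so some genes with the same excess as the last ones are not named), up to 3 genes per list, the 5 widest distal and promoter peaks of each held set, and Lyz2. Genes and promoters outside it that are named (Tnfaip3, Per1, Il1rn, Dusp6, Cd34, Flt3, Ldha and the Igk locus) were chosen after their values were seen. The marker check of 1 other cell type is not reported here. The members and the 17 gene lists were chosen with earlier results of these data known. Alternatives varied the overlap, the width, the promoter distance, the later lists and the list length. Scripts ran in Python 3.11.15 with pandas 2.3.3, numpy 2.4.6, matplotlib 3.10.9 and scipy 1.17.1.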

Additional observations from a re-analysis of the deposited data

How the results depend on the processing

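Of 44 alternatives computed, 33 left their value within 1.5 times the count, or within the 95% interval of a share, and 11 did not, with no direction reversed. With classified peaks of at least 300 bp, 5369 peaks were gained, 6278 were lost, 2188 were reverted gained and 2687 were held lost, as fewer peaks were classified. With the state required at both 8 and 12 h, 2617 peaks were reverted gained and 2917 held lost. The share of gained peaks held was 59.2% at 300 bp and above and 51.5% with the 0, 4 and 8 h lists cut to equal numbers of widest peaks, and the share of lost peaks held was 42.8% at 300 bp and above. From 500 bp upward these shares were 66.4% for gained and 34.8% for lost peaks. The alternatives on the 2 shares, and those on the Hoxa9 and Meis1 list, were chosen after seeing the data. No paired analysis was possible because each time point has 1 peak list for both replicates, and for the same reason replicates could not be left out in turn. The lists carry no read depth, so what depth limits is unknown.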
